A study of Mus musculus with 9 samples.

Results

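Cd34, Ly6a, Ly6d, Ly6e, Spn and P2ry14 encode proteins of the cell surface that are used to tell blood progenitors and early lymphoid cells apart. They were followed through 9 expression arrays of cultured mouse cells. All probe sets whose RefSeq accession or description gave 1 of these 6 genes were taken, which were 8 of the 45101 probe sets of the array. Of these, 5 were named by a RefSeq accession and 3 by a description alone. Cd34, Ly6a, Ly6d and P2ry14 had 1 probe set each, and Ly6e and Spn had a pair each.

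The arrays came from 3 knockout lines with 3 arrays each. RAG2ko cells lack RAG2, which with RAG1 cuts DNA to join antigen receptor gene segments, and the labels call them committed to the B lineage. Pax5ko cells lack Pax5 and are called B lineage specified, and EBFko cells lack EBF and are called lymphoid specified. EBF1 and PAX5 are transcription factors needed at successive steps of B cell development. RAG2ko cells were cultured with 10 ng/ml IL-7, whereas the medium of Pax5ko and EBFko cells held Flt3 ligand and IL-7 at 10 ng/ml each. The effects of genotype and medium therefore cannot be told apart in either comparison with RAG2ko. The sources used here give neither the alleles nor whether a line is 1 clone or its 3 samples are separate cultures, so a p-value measures no more than the spread between these samples, which may be technical. In bulk RNA, fewer cells with a transcript and less transcript per cell cannot be told apart.

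In mouse bone marrow, stem cells and multipotent progenitors carry Ly6a, known as Sca-1, and their early progeny carry CD34. Lymphoid progenitors that lean to the B lineage gain Ly6d, and pro-B cells carry CD43, the product of Spn. Sca-1, Ly6d and Ly6e belong to a family of small proteins held in the membrane by a lipid anchor, CD34 and CD43 are sialomucins with long sugar-coated stems, and P2ry14 is a receptor for nucleotide sugars that is found on blood progenitors.

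Levels are log2 signals after quantile normalization, and group values are means ± SD of 3 arrays. Differences are given ± SE from a limma fit to all 9 arrays, with Benjamini-Hochberg adjustment over 40928 probe sets, and a probe set was called at an adjusted p under 0.05. Of these 40928 probe sets, 5.22% were called in Pax5ko against EBFko, 9.92% in RAG2ko against Pax5ko and 12.6% in RAG2ko against EBFko. Counts in the gene lists below are to be read beside these shares. On each array, 40.9% to 47.2% of the probe sets lay below a signal of 64 (log2 of 6), here called dim. No detection calls were used that would set them apart from background, so differences that rest on them are also given with every signal below 64 raised to 64. Raising them in this way gives a floored difference, which is not a lower limit. The number of arrays limits the precision.

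The labels were checked against markers. Cd79a, which passes on B cell receptor signals, gave 13.31 to 13.71 in RAG2ko, 9.45 to 9.75 in Pax5ko and 4.88 to 5.83 in EBFko. The mean of 10 B-lineage genes was 12.13 to 12.78, 9.52 to 9.87 and 6.49 to 7.83 per array in the same order. Of them, 4 rose and 1 fell in Pax5ko against EBFko. In RAG2ko, 6 rose and 0 fell against Pax5ko, and 8 rose and 0 fell against EBFko. Not all kept that order: Blnk averaged 13.85 ± 0.47, 5.18 ± 0.31 and 8.97 ± 0.97, and Rag1 8.73 ± 1.78, 10.44 ± 0.44 and 8.77 ± 0.65. Ebf1 was bright on every array, and its 3 probe sets gave 9.43 to 11.22 on arrays labelled EBFko. The Pax5 probe set gave 2.64 to 5.62 on arrays labelled Pax5ko, 3.06 to 6.32 on EBFko arrays and 6.77 to 7.33 on RAG2ko arrays. Rag2 gave 5.96, 5.60 and 9.10 on the arrays labelled RAG2ko, so replicate 3 stood apart. It gave 7.86, 7.16 and 7.64 in Pax5ko and 9.16, 8.83 and 10.16 in EBFko. The sources used here do not place these probe sets relative to the deleted parts, so their signals are no check of the genotypes. Ebf1 and Pax5 are also among the 10 B-lineage genes above, and Ebf1 was 1 of the rises in both comparisons with RAG2ko. The mean signal of 19 stromal genes also set RAG2ko replicate 3 (9.17) apart from replicates 1 and 2 (5.62 and 6.74). Counts of member probe sets called are also given without that array, whereas counts in the other gene lists are given with it only.

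The members fell into 3 patterns. Cd34 and P2ry14 were bright in EBFko and dim in the other lines. Ly6a and Ly6d were bright in Pax5ko and EBFko and lower in RAG2ko. Ly6e and Spn were bright on every array and differed little or not at all. In Pax5ko against EBFko, 1 of the 8 probe sets rose and 2 fell, where 5.22% of all probe sets tested were called, 2.64% higher and 2.58% lower. RAG2ko against Pax5ko gave 1 rise and 2 falls, against 9.92% of all, 4.98% higher and 4.94% lower. RAG2ko against EBFko gave 1 rise and 4 falls, against 12.6% of all, 6.41% higher and 6.23% lower. The median difference of the 8 probe sets was 0.15, -0.22 and -1.69 in the same order of comparisons, against -0.01, 0.07 and 0.06 over all probe sets tested. The groups did not overlap for 5, 5 and 7 of the 8 probe sets, against 29.0%, 32.6% and 33.4% of all. All 8 probe sets passed the filter on low signal, Cd34 through the EBFko arrays and 1 Pax5ko array, and P2ry14 through the EBFko arrays and 2 Pax5ko arrays. Without RAG2ko replicate 3, no rise and 2 falls were called for RAG2ko against Pax5ko, and 1 rise and 4 falls for RAG2ko against EBFko.

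**Figure D1:**
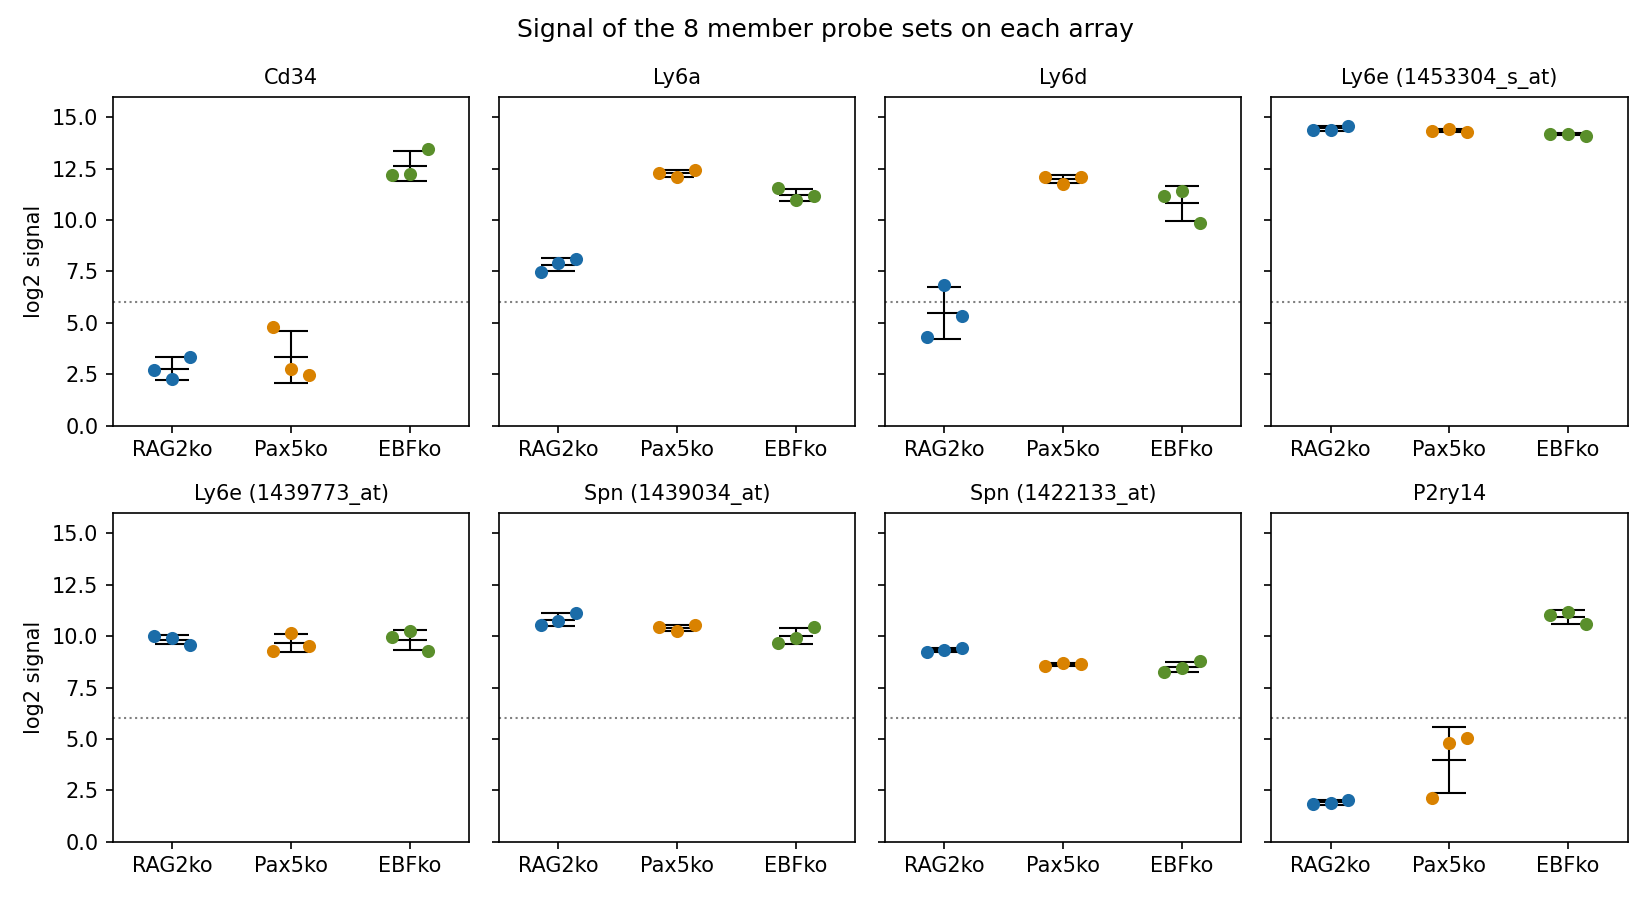
Log2 signal (vertical axis) of the 8 member probe sets on each array, with RAG2ko, Pax5ko and EBFko from left to right; points are arrays, bars the mean ± SD of 3 arrays, and the dotted line marks 6. Cd34 and P2ry14 lie above the dotted line only in EBFko, Ly6a and Ly6d are lowest in RAG2ko, and Ly6e and Spn stay above it on all arrays.

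Cd34 (1416072_at) showed the largest differences of the 8 probe sets. Its signal on the log2 scale was 2.73, 2.25 and 3.33 in RAG2ko, 4.79, 2.76 and 2.46 in Pax5ko, and 12.20, 12.23 and 13.47 in EBFko. All 3 EBFko arrays were far above the other 6, whose signals were all dim and overlapped between RAG2ko and Pax5ko. Before the log and the normalization, the deposited signal was at most 24.7 on the RAG2ko and Pax5ko arrays, against 4470, 4674 and 10337 in EBFko. Cd34 fell by 9.30 ± 0.67 in Pax5ko against EBFko (limma adjusted p = 6.03e-04), and the floored difference was -6.63. In RAG2ko against EBFko it fell by 9.86 ± 0.67 (limma adjusted p = 1.87e-04), with the same floored difference of -6.63. The difference of -0.57 ± 0.67 between RAG2ko and Pax5ko did not pass (limma adjusted p = 0.652), rested on dim signals in both lines and was 0.16 without Pax5ko replicate 1.

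P2ry14 (1424733_at), described on the array under an older name as an orphan receptor, had a like pattern at lower signals. Its levels were 1.82, 1.87 and 2.06 in RAG2ko, 2.14, 4.81 and 5.04 in Pax5ko, and 11.03, 11.19 and 10.58 in EBFko. Only the EBFko arrays rose above the dim range, and no array of any line overlapped with another line. P2ry14 fell by 6.94 ± 0.71 in Pax5ko against EBFko (limma adjusted p = 0.00253, floored -4.93) and by 9.02 ± 0.71 in RAG2ko against EBFko (limma adjusted p = 3.55e-04, floored -4.93). RAG2ko and Pax5ko differed by -2.08 ± 0.71, which did not pass (limma adjusted p = 0.117). Without Pax5ko replicate 1 that difference was -3.0 and passed (limma adjusted p = 0.00227), but it lay wholly in the dim range and was 0.00 once floored. As a description over 9 arrays that form 3 lines, the signals of Cd34 and P2ry14 had a Pearson correlation of 0.926.

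Sequence upstream of the start sites of Cd34 and P2ry14 is shown because both genes were bright only in EBFko. It was taken from RefSeq (GRCm38.p6), which in the table used held 3 of the 6 members, and covers the 250 bases before the start, 5′ to 3′ on the gene's strand. Capitals mark matches to 4 motifs searched on both strands. They were the EBF1 palindrome of TCCC and GGGA with any 2 bases between, and TGTGGT, the core bound by RUNX factors. The GATA motif was AGATAA. The E-box, bound by E proteins, was CANNTG. No match overlapped another in the stretches shown. The Cd34 stretch is chr1:194938571-194938820 on the plus strand, and the P2ry14 stretch, from the first of 4 listed start sites, is chr3:59153493-59153742 on the minus strand.
Cd34: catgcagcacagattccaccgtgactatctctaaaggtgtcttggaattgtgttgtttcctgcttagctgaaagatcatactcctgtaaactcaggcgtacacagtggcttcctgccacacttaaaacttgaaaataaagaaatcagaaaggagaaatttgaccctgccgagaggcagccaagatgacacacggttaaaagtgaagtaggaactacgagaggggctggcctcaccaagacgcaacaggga
P2ry14: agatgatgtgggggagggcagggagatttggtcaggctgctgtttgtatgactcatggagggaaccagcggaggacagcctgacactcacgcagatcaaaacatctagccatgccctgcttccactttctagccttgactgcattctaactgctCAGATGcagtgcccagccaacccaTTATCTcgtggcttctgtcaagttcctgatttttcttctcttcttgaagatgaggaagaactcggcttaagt
The Cd34 stretch held none of the 4 motifs as spelled here. In that of P2ry14, the E-box CAGATG begins 96 bases before the start. The other match, a GATA motif on the opposite strand that reads TTATCT here, begins 72 bases before it. The matches differed between the listed start sites of P2ry14. Start site 2, not shown, held a GATA motif 216 bases before the start and E-boxes at 234 and 148. Start sites 3 and 4 held none of the 4 motifs, and which start these cells use was not tested. Of 32851 promoter stretches of this length, 0.779% held the EBF1 palindrome, 14% the RUNX motif, 9.99% the GATA motif and 66.2% an E-box. These matches describe letters in the stretches and are not measured binding.

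Ly6a (1417185_at) was bright in 2 lines and lower in RAG2ko. It gave 7.48, 7.91 and 8.10 in RAG2ko, 12.27, 12.11 and 12.42 in Pax5ko, and 11.54, 10.95 and 11.14 in EBFko. The 3 lines did not overlap, and every array lay above the dim range, so the sizes do not rest on dim signal. Ly6a was 21.6-fold lower in RAG2ko than in Pax5ko, a log2 difference of -4.44 ± 0.23 (limma adjusted p = 8.88e-05). Against EBFko it was 10.4-fold lower in RAG2ko, with a log2 difference of -3.38 ± 0.23 (limma adjusted p = 1.89e-04). Pax5ko was above EBFko by 1.06 ± 0.23 (limma adjusted p = 0.0458). That last call was lost without any single Pax5ko or EBFko array, and without RAG2ko replicate 2 (differences of 0.93 to 1.22).

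Ly6d (1416930_at), a marker of the B-lineage-biased lymphoid progenitors, ran in the same order at a larger range. Its levels were 4.32, 6.83 and 5.33 in RAG2ko, 12.08, 11.75 and 12.09 in Pax5ko, and 11.14, 11.42 and 9.85 in EBFko. Again no line overlapped another, but only replicate 2 of RAG2ko was above the dim range. Ly6d fell by 6.48 ± 0.66 in RAG2ko against Pax5ko (limma adjusted p = 0.00156, floored -5.70) and by 5.31 ± 0.66 against EBFko (limma adjusted p = 0.00261, floored -4.53). Pax5ko and EBFko differed by 1.17 ± 0.66, which did not pass (limma adjusted p = 0.424), with a 95% interval from -0.37 to 2.72. Over the 9 arrays, which form 3 lines, Ly6a and Ly6d had a Pearson correlation of 0.972, and Cd34 correlated with them at 0.331 and 0.362.

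**Figure D2:**
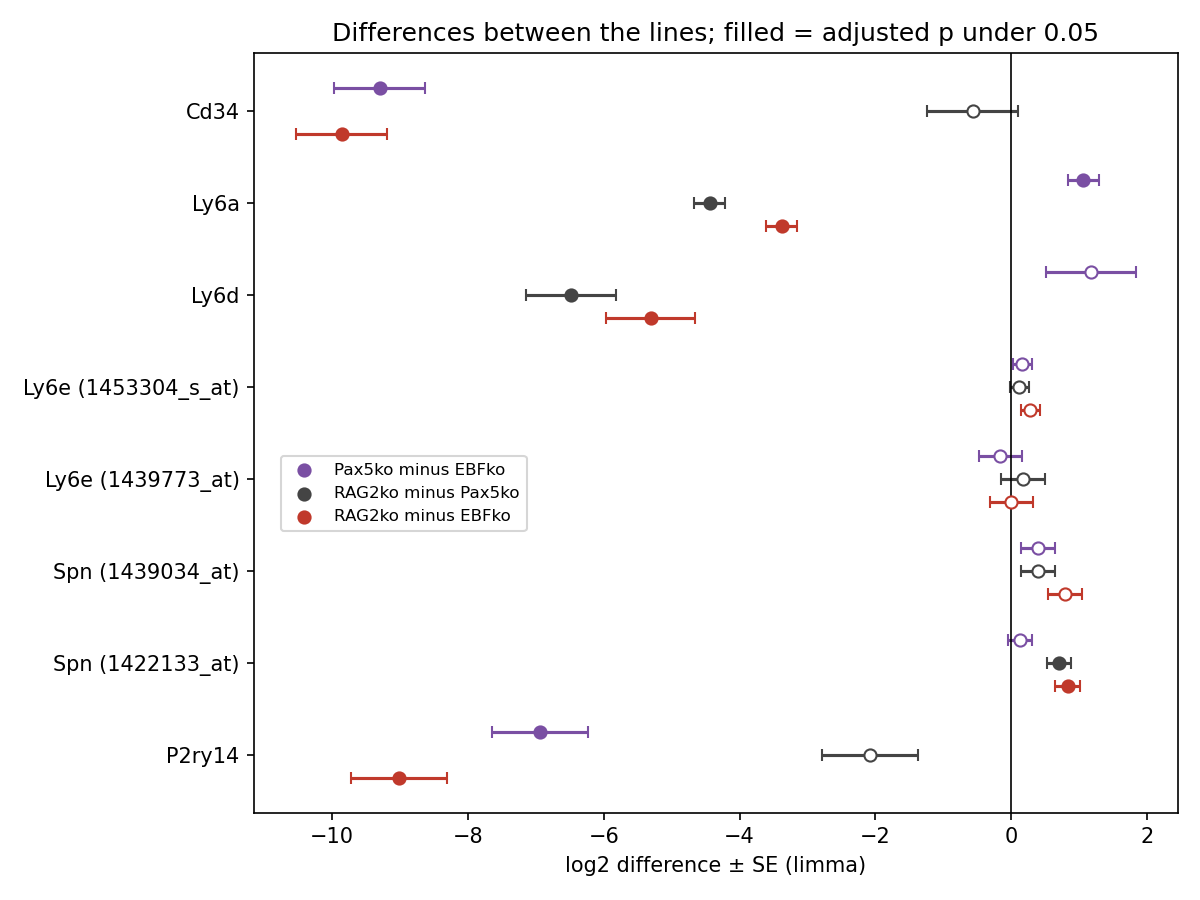
Log2 differences ± SE (horizontal axis) of the 8 member probe sets in the 3 comparisons; filled points had an adjusted p under 0.05. Cd34 and P2ry14 have their large differences against EBFko, at -9.30 and -6.94 for Pax5ko, whereas Ly6a and Ly6d have theirs for RAG2ko, at -4.44 and -6.48 against Pax5ko.

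Fibroblasts and stromal cells can carry Cd34 and Ly6a, and stromal transcripts were present in these libraries. The mean log2 signal of the stromal list (19 of its 20 genes) was 5.62, 6.74 and 9.17 in RAG2ko, 9.52, 8.02 and 10.15 in Pax5ko, and 9.66, 8.20 and 9.82 in EBFko. Col3a1 had the highest mean of the listed genes in each line. It gave 7.43 to 12.55 in RAG2ko, 11.55 to 13.51 in Pax5ko and 11.01 to 13.58 in EBFko. In the list, 0 of 19 genes rose or fell in RAG2ko against Pax5ko (median -2.28), 1 fell in Pax5ko against EBFko (median 0.12) and 1 fell in RAG2ko against EBFko (median -2.46). The 1 that fell was Pdgfrb, a growth factor receptor of stromal cells, which averaged 3.88 ± 0.68 in RAG2ko, 3.79 ± 0.84 in Pax5ko and 6.81 ± 0.65 in EBFko. Without RAG2ko replicate 3, the RAG2ko array with the highest stromal mean, the Ly6a difference between RAG2ko and Pax5ko was -4.56 and that of Ly6d -6.40. The RAG2ko arrays left had stromal means of 5.62 and 6.74, below every Pax5ko array, so these values cannot separate out stromal RNA. The part of stromal RNA in the levels of the members was not tested.

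**Figure D3:**
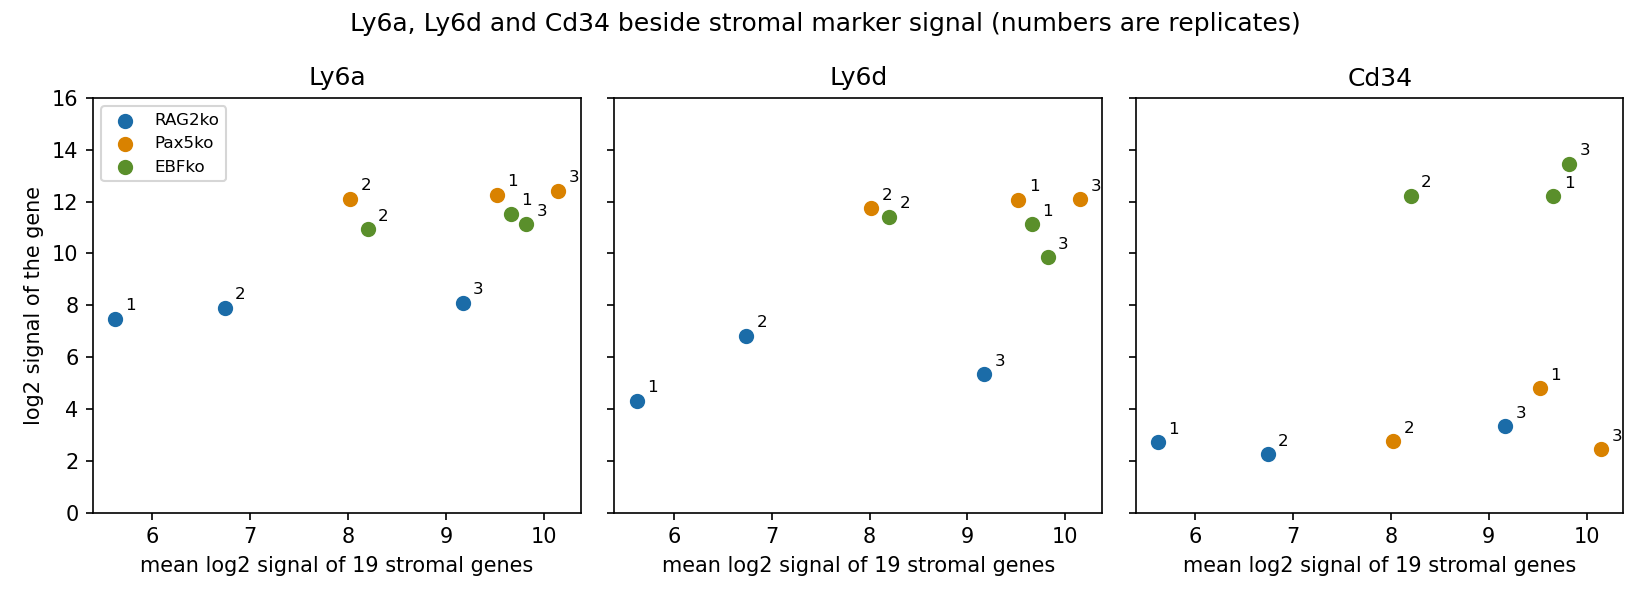
Log2 signal of Ly6a, Ly6d and Cd34 (vertical axis) against the mean log2 signal of 19 stromal genes (horizontal axis), 1 point per array with its replicate number. Stromal means run from 5.62 to 9.17 in RAG2ko, 8.02 to 10.15 in Pax5ko and 8.20 to 9.82 in EBFko, and Ly6a lies at 7.48 to 8.10, 12.11 to 12.42 and 10.95 to 11.54 in the same lines.

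Markers of other cell types also moved with the lines, and their part in the members' results was not tested. The mean of the myeloid list (12 of 14 genes) was 4.81 to 5.52 in RAG2ko, 5.42 to 5.83 in Pax5ko and 6.52 to 7.09 in EBFko, the line in which Cd34 and P2ry14 were bright. Of these 12 genes, 0 rose and 2 fell in each comparison. Against EBFko they were Fcgr3 and Adgre1, a macrophage marker, which gave at most 6.91 on RAG2ko and Pax5ko arrays, against 9.88 to 10.37 in EBFko. Others ran differently. Lyz2, a lysozyme of myeloid cells, gave 7.75 to 8.17 in RAG2ko, 2.97 to 6.77 in Pax5ko and 5.78 to 7.18 in EBFko. The granulocyte genes S100a8 and Elane were dim in EBFko, and Mpo, a granule enzyme, gave 10.19 on EBFko replicate 3 and 6.29 and 6.13 on replicates 1 and 2.

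The T and NK cell list (10 of 12 genes) averaged 5.65 to 6.91 in RAG2ko, 4.91 to 5.93 in Pax5ko and 6.75 to 7.23 in EBFko. In Pax5ko against EBFko 0 of its genes rose and 2 fell, Lck and the NK receptor chain Klrd1, which averaged 1.94 ± 2.73 in Pax5ko and 10.52 ± 0.17 in EBFko (limma adjusted p = 0.0102, floored -4.52). In RAG2ko 1 rose and 0 fell against Pax5ko, and 1 rose and 2 fell against EBFko. Cd3e, which was the rise in both and is a chain of the T cell receptor complex, was dim on all arrays (2.96 to 5.17). The dendritic list (6 of 8 genes) averaged 8.15 to 8.54 in RAG2ko, 9.95 to 10.06 in Pax5ko and 11.57 to 11.64 in EBFko. Its genes did not run together: Ccr9, Cox6a2 and Flt3 followed that order, whereas Irf8 averaged 11.25 ± 0.01 in RAG2ko, 9.26 ± 0.05 in Pax5ko and 10.91 ± 0.49 in EBFko, and Tcf4 and Spib were called in no comparison.

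Endothelial cells also carry CD34 and Sca-1. The endothelial mean (8 of 10 genes) lay between 5.41 and 6.74 in RAG2ko, 5.0 and 5.88 in Pax5ko, and 5.64 and 5.77 in EBFko. Pecam1, which blood cells carry too, fell by 1.96 ± 0.35 in Pax5ko against EBFko (limma adjusted p = 0.0217) and fell by 1.46 ± 0.35 in RAG2ko against EBFko (limma adjusted p = 0.0344). It averaged 8.56 ± 0.70 in RAG2ko, 8.07 ± 0.28 in Pax5ko and 10.02 ± 0.11 in EBFko. Eng, a receptor of the TGF-beta family, rose by 1.82 ± 0.43 in RAG2ko against Pax5ko (limma adjusted p = 0.0391) and by 2.10 ± 0.43 against EBFko (limma adjusted p = 0.0196). No other gene of this list was called, and the endothelial cadherin Cdh5 was dim on all arrays (3.93 to 5.91).

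Ly6e, whose mouse product was first described on immature thymocytes, was bright in all lines. Its probe set 1453304_s_at, marked by the suffix as matching several transcripts, gave 14.38, 14.37 and 14.59 in RAG2ko, 14.33, 14.41 and 14.26 in Pax5ko, and 14.20, 14.20 and 14.10 in EBFko. RAG2ko and Pax5ko overlapped, and both lay slightly above EBFko. The difference was 0.16 for Pax5ko minus EBFko (95% interval -0.16 to 0.48), 0.12 for RAG2ko minus Pax5ko (-0.20 to 0.44) and 0.28 for RAG2ko minus EBFko (-0.04 to 0.60), and none passed. The other probe set, 1439773_at, was named by its description and gave 9.57 to 9.99 in RAG2ko, 9.29 to 10.14 in Pax5ko and 9.26 to 10.23 in EBFko, with overlap between all lines and 95% intervals of the differences within -0.92 and 0.92. These intervals leave room for changes below 1 on the log2 scale. Such changes would be far smaller than the falls of Ly6a and Ly6d in RAG2ko against either line.

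Ly6a, Ly6d and Ly6e lie in 1 gene cluster. From Psca to Ly6h, both included, the RefSeq annotation lists 28 protein-coding genes. Of these, 14 had a named probe set here, 15 probe sets in all with 13 tested. Ly6d, Ly6a and Ly6c1 were called, all lower in RAG2ko. Ly6c1, which in mouse marks monocytes and some lymphocytes, gave 6.58, 7.50 and 7.85 in RAG2ko, 9.39, 8.82 and 9.24 in Pax5ko, and 9.25, 8.51 and 10.04 in EBFko. It fell by 1.84 ± 0.46 in RAG2ko against Pax5ko (limma adjusted p = 0.0497) and by 1.96 ± 0.46 against EBFko (limma adjusted p = 0.0341). Ly6c1 and other genes of the cluster resemble each other in sequence, so which of them its probe set measures is uncertain. Ly6i, next to Ly6a on the other side, averaged 5.71 ± 0.36 in RAG2ko, 4.96 ± 1.15 in Pax5ko and 5.56 ± 0.56 in EBFko and was not called. Lynx1, next to Ly6d, averaged 5.40 ± 1.38, 6.5 ± 0.58 and 6.70 ± 0.56 in the same order and was not called. Whether probes of Ly6a also take up RNA of its relatives was not tested.

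**Figure D4:**
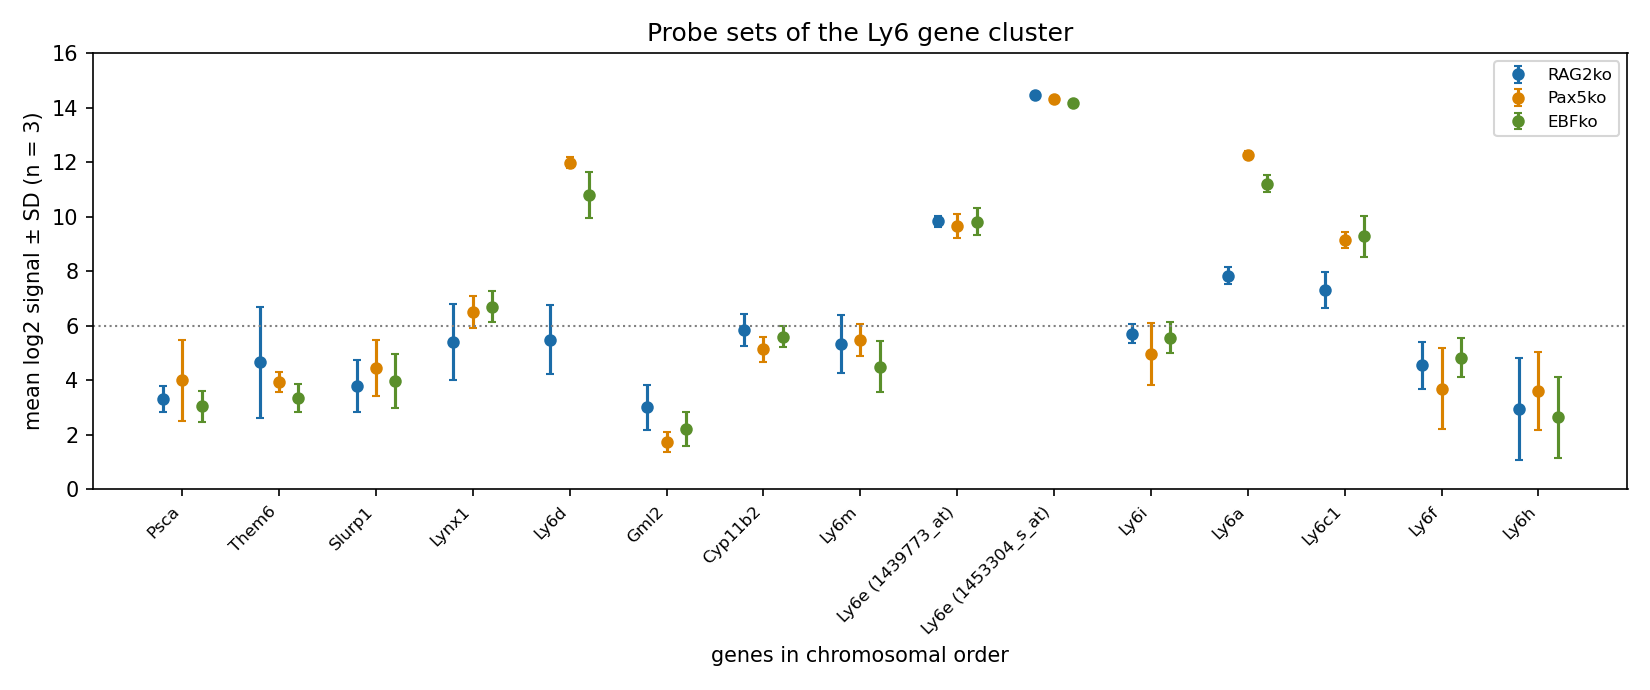
Mean log2 signal ± SD (vertical axis, n = 3 arrays per line) of 15 probe sets of the Ly6 cluster in chromosomal order from Psca to Ly6h, with RAG2ko, Pax5ko and EBFko side by side; the dotted line marks 6. Ly6d, Ly6a and Ly6c1 are lower in RAG2ko, Ly6e is bright throughout, and the remaining genes lie near or below the dotted line.

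In the wider family of Ly6 and urokinase receptor genes, members left out, 15 genes of a list of 27 were tested. None was called in Pax5ko against EBFko. In RAG2ko, 0 rose and 2 fell against Pax5ko, with a median of 0.19, and 0 rose and 2 fell against EBFko, with a median of -0.12. They were Ly6c1 and Plaur, the urokinase receptor. Over all probe sets tested, 9.92% and 12.6% were called in these comparisons (medians 0.07 and 0.06), so 2 of 15 genes lie near that share. Plaur gave 7.23, 7.24 and 7.17 in RAG2ko, 8.63, 8.40 and 8.60 in Pax5ko, and 8.70, 8.50 and 8.76 in EBFko, and fell by 1.33 ± 0.14 and 1.44 ± 0.14 against these lines.

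Spn, the gene of CD43, was present in all lines and highest in RAG2ko. The probe set named by a RefSeq accession, 1422133_at, gave 9.21, 9.32 and 9.43 in RAG2ko, 8.54, 8.70 and 8.64 in Pax5ko, and 8.25, 8.46 and 8.78 in EBFko. The RAG2ko arrays lay above the other 6, and Pax5ko and EBFko overlapped. Spn rose by 0.70 ± 0.18 in RAG2ko against Pax5ko (limma adjusted p = 0.0488) and by 0.83 ± 0.18 against EBFko (limma adjusted p = 0.0227). Both calls were lost without quantile normalization (0.57 and 0.62) and with each array centred on its median (0.56 and 0.76). The first was also lost without any single RAG2ko or Pax5ko array (0.64 to 0.74), and without EBFko replicate 1 or 2. The second was lost without RAG2ko replicate 1 or 2 (0.87 and 0.82) and without EBFko replicate 1 or 2 (0.71 and 0.81).

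The second Spn probe set, 1439034_at, is described only as an expressed sequence similar to the rat leukosialin transcript, so its assignment is less certain. Its levels were 10.53, 10.73 and 11.14 in RAG2ko, 10.43, 10.23 and 10.53 in Pax5ko, and 9.68, 9.89 and 10.45 in EBFko. RAG2ko lay above EBFko without overlap, by 0.79 ± 0.25, which did not pass (limma adjusted p = 0.0892, 95% interval 0.20 to 1.39). Pax5ko minus EBFko was 0.39 and RAG2ko minus Pax5ko 0.40, and neither passed. Without EBFko replicate 3 the difference between RAG2ko and EBFko was 1.02 and passed (limma adjusted p = 0.0438). Of 7 other sialomucins tested, 1 was called in the 3 comparisons. Selplg, the selectin ligand PSGL-1, averaged 10.84 ± 0.16 in Pax5ko and 11.98 ± 0.28 in EBFko and fell by 1.14 ± 0.20 (limma adjusted p = 0.0211).

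Other surface proteins of blood progenitors were read from a list of 25 genes, all tested. In Pax5ko, 0 rose and 5 fell against EBFko, with a median of -0.22. In RAG2ko, 4 rose and 6 fell against Pax5ko (median -0.15), and 4 rose and 9 fell against EBFko (median -0.42). The genes of this list therefore did not share 1 pattern. Over all probe sets tested, 5.22%, 9.92% and 12.6% were called in these comparisons in that order, with medians of -0.01, 0.07 and 0.06.

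Cd27, a costimulatory receptor of lymphoid and multipotent progenitors, was lower in Pax5ko and RAG2ko. It gave 2.27, 2.97 and 1.88 in RAG2ko, 4.38, 4.58 and 4.98 in Pax5ko, and 9.25, 9.61 and 10.10 in EBFko. The signal was dim outside EBFko and fell by 5.01 ± 0.34 in Pax5ko (limma adjusted p = 5.21e-04, floored -3.65). In RAG2ko it also fell by 2.27 ± 0.34 against Pax5ko (limma adjusted p = 0.00751), a difference of dim signals that was 0.00 once floored. Cd44, a hyaluronan receptor, averaged 8.91 ± 0.84 in Pax5ko and 11.55 ± 0.47 in EBFko and fell by 2.64 ± 0.44.

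Cd48, a ligand of SLAM family receptors, was lower in RAG2ko, as Ly6a and Ly6d were. Its levels were 5.24, 6.25 and 6.35 in RAG2ko, 12.03, 11.77 and 12.06 in Pax5ko, and 9.56, 9.81 and 11.53 in EBFko. Cd48 fell by 6.01 ± 0.54 in RAG2ko against Pax5ko (limma adjusted p = 9.90e-04, floored -5.75). Flt3, the receptor of the ligand that was left out of the RAG2ko medium, averaged 5.92 ± 0.63 in RAG2ko, 9.76 ± 0.10 in Pax5ko and 11.94 ± 0.15 in EBFko. It fell in all 3 comparisons, by 3.84 ± 0.30 in RAG2ko against Pax5ko (floored -3.55) and by 6.02 ± 0.30 against EBFko (floored -5.73). Kit, the stem cell factor receptor, averaged 4.71 ± 1.28 in RAG2ko, 7.96 ± 0.02 in Pax5ko and 9.17 ± 0.63 in EBFko and fell by 3.25 ± 0.62 in RAG2ko against Pax5ko (limma adjusted p = 0.018, floored -1.96).

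Some genes of the list moved the other way. Bst1, an ectoenzyme of B cell precursors and stroma, gave 10.69, 10.45 and 11.74 in RAG2ko, 5.90, 5.88 and 4.71 in Pax5ko, and 5.0, 4.39 and 6.65 in EBFko. It rose by 5.46 ± 0.65 in RAG2ko against Pax5ko (limma adjusted p = 0.00282, floored 4.96). Slamf1, the receptor CD150, rose by 2.95 ± 0.28 in the same comparison (floored 2.61) and averaged 8.63 ± 0.27 in RAG2ko and 5.68 ± 0.44 in Pax5ko. Cd24a, a small surface sialoglycoprotein of B cell precursors, averaged 14.96 ± 0.20 in RAG2ko and 13.83 ± 0.14 in Pax5ko and rose by 1.12 ± 0.20. Il7r, the receptor of the cytokine present in both media, averaged 12.54 ± 0.75 in RAG2ko, 12.27 ± 0.09 in Pax5ko and 12.49 ± 0.17 in EBFko, and no comparison passed.

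**Figure D5:**
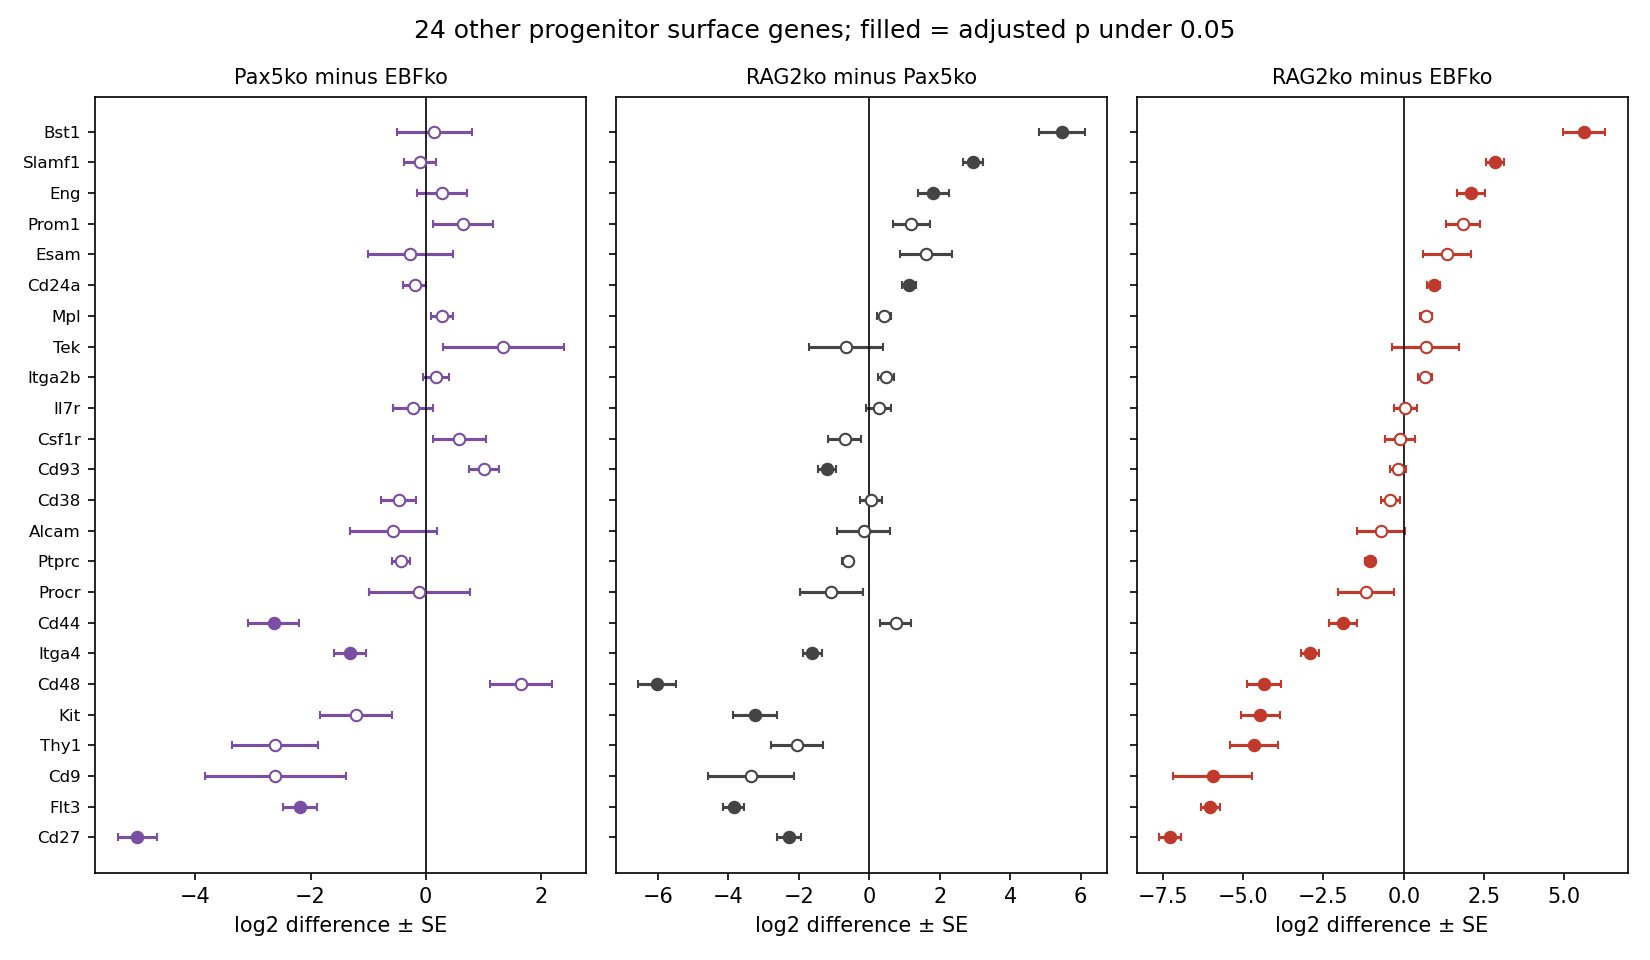
Log2 differences ± SE (horizontal axis) of 24 other progenitor surface genes in the 3 comparisons, ordered by RAG2ko minus EBFko; filled points had an adjusted p under 0.05. As plotted, without flooring, Bst1 (5.62) and Slamf1 (2.85) are highest and Cd27 (-7.28) is lowest in RAG2ko against EBFko. Cd27 was dim in RAG2ko, and its floored difference of -3.65 is smaller in size than those of Flt3 (-5.73) and Cd48 (-4.10).

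Among 8 other receptors of the P2Y family tested, 0 rose or fell in Pax5ko against EBFko and 1 fell in each comparison with RAG2ko. A count of 1 in 8 is near the shares over all probe sets tested, 9.92% against Pax5ko and 12.6% against EBFko. The gene that fell was P2ry12, an ADP receptor known from platelets and microglia, which gave 6.07, 4.97 and 6.07 in RAG2ko, 9.21, 8.60 and 8.74 in Pax5ko, and 8.27, 8.05 and 8.17 in EBFko. P2ry12 fell by 3.15 ± 0.33 in RAG2ko against Pax5ko (limma adjusted p = 0.00173, floored -2.80), so it was bright in Pax5ko, where P2ry14 was dim.

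Interferon raises Ly6a and Ly6e in many cell types, and a list of 34 interferon response genes was read beside them, 25 of them tested. In Pax5ko 2 rose and 1 fell against EBFko (median -0.04). In RAG2ko 1 rose and 0 fell against Pax5ko (median -0.29), and 4 rose and 2 fell against EBFko (median 0.00). Over all probe sets tested, 5.22%, 9.92% and 12.6% were called in these comparisons in that order, with medians of -0.01, 0.07 and 0.06. Gbp3, a guanylate-binding protein, averaged 9.71 ± 0.07 in RAG2ko, 8.68 ± 0.16 in Pax5ko and 7.33 ± 0.20 in EBFko. It rose by 1.35 ± 0.16 in Pax5ko against EBFko (limma adjusted p = 0.00521), by 1.03 ± 0.16 in RAG2ko against Pax5ko (limma adjusted p = 0.00905) and by 2.38 ± 0.16 in RAG2ko against EBFko (limma adjusted p = 1.93e-04). Ifi27l2a, an interferon-induced protein, averaged 10.14 ± 0.29 in RAG2ko, 10.77 ± 0.47 in Pax5ko and 8.24 ± 0.90 in EBFko. Ifi27l2a rose by 2.53 ± 0.47 in Pax5ko against EBFko (limma adjusted p = 0.0249) and by 1.89 ± 0.47 in RAG2ko against EBFko (limma adjusted p = 0.0382). Mx1, an antiviral GTPase, was at or below 5.49 on all RAG2ko and Pax5ko arrays and at 6.90, 7.0 and 7.03 in EBFko. The mean of the list per array was 8.08 to 8.35 in RAG2ko, 7.85 to 8.92 in Pax5ko and 7.79 to 8.60 in EBFko, which overlap, and the part of interferon in the members' levels was not tested.

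Genes whose signal ran most like a member's were named by Pearson correlation over the 9 arrays, as a description of arrays that fall into 3 lines. For Cd34 they were Pan3, Ivns1abp and Dbi (0.989, 0.988 and 0.987), but Pan3 averaged 9.97 ± 0.11 in RAG2ko, 10.00 ± 0.14 in Pax5ko and 10.86 ± 0.13 in EBFko, a far smaller range. For P2ry14 they were Pip4k2a, Cbfa2t3 and Fcgr3 (0.985, 0.983 and 0.983). Of these Fcgr3, a receptor for the constant part of antibodies, had a large range, with 5.20 ± 0.37 in RAG2ko, 6.45 ± 0.20 in Pax5ko and 12.19 ± 0.14 in EBFko. The genes nearest to Ly6a were Agpat2, Ccnd2 and Lsp1 (0.990, 0.989 and 0.988). Ccnd2, a D-type cyclin, averaged 9.38 ± 0.30 in RAG2ko, 13.03 ± 0.06 in Pax5ko and 12.62 ± 0.19 in EBFko. Nearest to Ly6d was Kcnk5, a potassium channel (0.980), which averaged 3.89 ± 0.98 in RAG2ko, 8.33 ± 0.03 in Pax5ko and 7.13 ± 0.23 in EBFko. Plekha2 was nearest to Ly6e (0.975) and Plaat3 to the brighter Spn probe set (0.954).

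The authors' deposited tables also give 1 ratio per probe set and line, without replicates and against a reference that is not stated. In the authors' deposited table, the Cd34 ratio was 0.482 in RAG2ko, 0.477 in Pax5ko and 300.6 in EBFko. For P2ry14 the authors' deposited table gave 0.840, 0.734 and 154.7 in the same order of lines. Both were thus high in EBFko alone in these ratios too. The Ly6a ratio in the authors' deposited table was 0.0733 in RAG2ko, 2.534 in Pax5ko and 0.935 in EBFko, and that of Ly6d 0.0136, 1.918 and 0.745. For the 4 probe sets of Ly6e and Spn, the ratios in the authors' deposited table lay between 0.712 and 1.377.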

How the data were processed

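RNA of 3 lines was measured on Affymetrix mouse arrays, 1 per sample. The deposited signal intensity is linear, with 1 value for each probe set on each array, and the mean after trimming was 500 on every array. The submitters' processing notes name GCRMA, and the step that gave this scale is not given in the sources used here. The authors also deposited a table of ratios per line, against a reference that is not stated, which served as an alternative only.

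Intensities were log2 transformed and quantile normalized over 9 arrays without the 64 control probe sets. Probe sets with a log2 signal above 4 on at least 3 arrays were tested (40928). The test was limma 3.58.1 (lmFit, eBayes; R 4.3.3), two-sided, fitted to all arrays with Benjamini-Hochberg adjustment over all probe sets tested. A RefSeq accession named 13127 probe sets, the same description as one of these named 4965 more, and 60 were named by 32 descriptions matched by hand; 26949 have no single symbol here.

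A gene on a list is its brightest probe set. Genes outside the members were named as the largest called rises and falls of each list, the genes nearest in Pearson correlation to each member, and markers; Cd44, Kit, Cd24a, Il7r, Lynx1 and Ly6i were chosen after their values were seen. A gene that the rule names is not reported here. The members and all lists were chosen with earlier results of these data known. Motifs were searched in RefSeq sequence (GRCm38.p6). Groups follow the labels. Replicate numbers were not used as pairs, as arrays of the same number deviated together only weakly (correlations of -0.01 to 0.11).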

Additional observations from a re-analysis of the deposited data

How the results depend on the processing

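The 8 calls of Cd34, P2ry14, Ly6d and Ly6a other than Ly6a in Pax5ko against EBFko passed in all 22 settings, the 9 single arrays left out included, with a largest limma adjusted p of 0.0203. Calls under 1.1 on the log2 scale depended on the setting, and dim signal limits every size below 6.

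Ly6a in Pax5ko minus EBFko did not pass without quantile normalization (1.05, adjusted p = 0.0627), without the filter (1.06), without probe sets matching several transcripts (1.06) or in the 6 arrays compared (1.06), and single arrays left out gave 0.93 to 1.22. Spn (1422133_at) in RAG2ko minus Pax5ko did not pass without quantile normalization (0.57), with median centring (0.56), without the filter (0.70), without multi-transcript probe sets (0.70) or in 6 arrays (0.70), and ranged from 0.64 to 0.74 with single arrays left out. In RAG2ko minus EBFko it did not pass at 0.62, 0.76 and 0.83 without quantile normalization, with centring and in 6 arrays (0.71 to 0.97 with arrays left out). The brighter Spn probe set passed there with a filter at 6 (0.79), with floored signals (0.79), as a mean of both probe sets (0.81) and with trend and robust eBayes (0.79), and ranged from 0.62 to 1.02 with arrays left out. Ly6e passed there only with trend and robust eBayes (0.28, adjusted p = 0.0192).

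The deposited ratios moved Ly6a to 1.44 (Pax5ko minus EBFko) and -5.11 (RAG2ko minus Pax5ko), Ly6e to 0.25 and 0.40 (RAG2ko minus Pax5ko and minus EBFko), Spn (1422133_at) to 0.42 and 0.53 (Pax5ko minus EBFko, RAG2ko minus Pax5ko) and P2ry14 to 0.19 and -7.52 (RAG2ko minus Pax5ko and minus EBFko). The sign turned, with no call, for Ly6e (1439773_at) in RAG2ko minus EBFko without quantile normalization (-0.08) and with array weights (-0.01), and over arrays left out it spanned -0.28 to 0.21 there, -0.45 to 0.04 in Pax5ko minus EBFko and -0.02 to 0.41 in RAG2ko minus Pax5ko. Cd34 and P2ry14 in RAG2ko minus Pax5ko spanned -1.0 to 0.16 and -3.0 to -1.55.

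The number of probe sets called moved by over 1.5 times in several settings. In Pax5ko minus EBFko, 2135 became 3264 (filter at 6), 4375 (floored), 997 (1 probe set per gene), 826 (gene means), 1294 (no multi-transcript probe sets), 3817 (trend and robust) and 3397 (array weights), and 983 to 2546 with arrays left out. In RAG2ko minus Pax5ko, 4060 became 6789 (floored), 1673, 1447 and 2513 (1 probe set per gene, gene means, no multi-transcript probe sets), 6272 (trend and robust) and 2641 (6 arrays), and 2436 to 4518 with arrays left out. In RAG2ko minus EBFko, 5173 became 2044, 1754, 3257 and 3171 (1 probe set per gene, gene means, no multi-transcript probe sets, 6 arrays), and 3150 to 5970 with arrays left out. Fewer features enter the gene-level settings; otherwise the cause was not tested. Without quantile normalization the RAG2ko minus EBFko calls split into 2013 higher and 2965 lower, against 2623 and 2550. With median centring, the split was 1332 higher and 1933 lower in RAG2ko minus Pax5ko, against 2040 and 2020, and 1014 and 722 in Pax5ko minus EBFko, against 1080 and 1055.

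With the replicate number as a block, Ly6a in Pax5ko minus EBFko (1.06, adjusted p = 0.107) and Spn (1422133_at) in RAG2ko minus Pax5ko (0.70, adjusted p = 0.0661) did not pass, the count in Pax5ko minus EBFko was 1222, and no other call of a member changed; 2 of 9 pairs of arrays with the same number correlated above 0.1.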
